A study of Mus musculus with 70 samples.

Results

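Liver resident macrophages of male mice carrying the OpnKI Mye genotype were compared with those of WT males after 24 weeks on a NASH (nonalcoholic steatohepatitis) diet. The comparison takes 5 OpnKI Mye libraries (called KI) and 5 WT libraries, which are 10 of the 70 libraries of the series, and the genes are sorted into those of the macrophages and those whose counts are matched by RNA from liver tissue. The cells were sorted as F4/80 high and CD11b low, and each library holds poly(A) RNA of such a sort. WT mice are labelled Lyz2.Cre+/+, a Cre recombinase placed in the lysozyme gene that myeloid cells use. KI mice are labelled OpnKI Mye, a name that reads as osteopontin knocked in for myeloid expression. The sources used here do not give the promoter of the knock-in, its Cre genotype or the age of the mice at the start. Other sets of libraries are set beside the comparison: macrophages of the same genotypes from males on the control diet (4 KI and 4 WT), macrophages from females on the NASH diet (6 KI and 6 WT), and total liver of NASH-diet males (4 KI and 4 WT), which gives the level of each gene in liver tissue.

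Kupffer cells, the resident macrophages of the liver, line the sinusoids and take up particles and dying cells. In steatohepatitis part of this population is lost and is replaced from monocytes, and macrophages with a lipid-handling program (Trem2, Gpnmb, Spp1) accumulate. Osteopontin is a secreted glycoprotein that binds integrins and CD44. Oncostatin M is a cytokine of the interleukin 6 family that acts through the receptor subunits Osmr and Il6st and through STAT3. Hepatocytes fill most of the organ with a few very abundant messages (albumin, apolipoproteins, fibrinogen), and their RNA can be carried into a sort as free RNA, as fragments that stick to cells, or inside cells that engulfed them.

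The 10 libraries held 18314940 to 21808178 counts in KI and 17007445 to 24317721 in WT. All 10 had the markers of the sort: Adgre1, which encodes F4/80, stood at 1408 to 1727 TMM CPM in KI and 1859 to 2461 in WT, and Clec4f, a lectin of Kupffer cells, at 3042 to 10320 in KI and 4001 to 11620 in WT (CPM is the usual scaling of a count to its library's total, here with TMM normalisation). Among the male macrophage libraries, the one labelled WT control 4 had Xist at 999 CPM and the Y-linked Ddx3y at 0.472 CPM, against at most 9.73 and at least 87.9 CPM in the other 17. It does not enter the comparison itself, but with the other control-diet libraries it enters the estimate of the spread. Without it 384 genes differed between KI and WT on the NASH diet, against 408 with it. The first principal component, which carried 51.7% of the variance of the 18 male libraries, placed the KI NASH libraries at 22.6 to 101.6, the WT NASH libraries at -20.2 to 54.7 and all control-diet libraries at -47.0 to -38.2.

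Spp1, the gene knocked in (chr5:104435111-104441053 of GRCm38), was read first. KI macrophages had 199.5, 152, 45.5, 61.1 and 41.4 TMM CPM on the NASH diet, and WT macrophages had 6.79, 48.6, 6.78, 53.2 and 5.65. WT NASH 2 and 4 reached the levels of the lower KI libraries, so the groups overlapped. The difference was 2.05 on the log2 scale (SE 0.62) and did not pass with edgeR's quasi-likelihood test (adjusted p = 0.089). DESeq2 gave adjusted p = 0.0315 for the same difference, and without WT NASH 4 or KI NASH 5 edgeR gave 0.0254 and 0.0469. On the control diet the groups were apart, at 7.10 to 11.5 TMM CPM in KI and 0.277 to 0.550 in WT. Little of Spp1 was matched by liver RNA: 0.963% of its counts over the 10 libraries is what the liver level and the carry-over of each library would bring. WT NASH 2 and 4 were also the WT libraries highest in Gpnmb, with 603 and 856 TMM CPM, against 13.4 to 63.5 in the other 3 WT libraries.

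Carry-over was measured as the liver share of a library: the median, over 24 hepatocyte genes, of the gene's CPM in the macrophage library divided by its mean CPM in total liver of the same genotype on the NASH diet. It was 0.726, 0.497, 1.19, 3.51 and 0.661% in the KI libraries and 0.220, 0.0668, 0.319, 0.401 and 0.117% in the WT libraries. The groups did not overlap, and KI NASH 4 stood far above the others. The mean share was 5.86 times as high in KI as in WT, and 3.42 times without KI NASH 4. On the control diet the liver shares were 0.151 to 0.201% in KI and 0.128 to 0.336% in WT.

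For each gene, the liver share of each library times the liver level gave the counts that carried-over liver RNA would bring, and their part of all its counts over the 10 libraries is called the carried share. Genes with a carried share under 10% are called macrophage-own (11910 genes tested), those from 50% liver-borne (395), and those between mixed (299), while 432 genes without a match in the male liver table are unclassed. The classes come from the same 10 libraries as the comparison, so that a direction shared by the liver-borne genes is set in part by how they were chosen. KI NASH 4, with the highest liver share (3.51%), brings a large part of the expected counts, so the classes lean on this library. The same classes were kept in every fit that left out a library, KI NASH 4 included. Total liver itself contains macrophages, so a carried share is a reading of levels and does not identify the cell a transcript came from.

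Of 13036 genes tested, 408 differed between KI and WT (3.13%), 342 higher (2.62%) and 66 lower (0.506%) in KI. The KI and WT libraries did not overlap for 459 genes (3.52%). Most of the higher genes were liver-borne: 284 of the 395 liver-borne genes were higher and none lower, with a median log2 fold change of 2.57. Of the mixed genes 40 of 299 were higher and none lower. The macrophage-own class gave 13 higher and 66 lower genes of 11910, which is 0.663% of the class, and its median fold change was -0.01. All 66 genes lower in KI were macrophage-own, while 13 of the 342 higher genes were, beside 11910 of the 13036 genes tested. This split follows in part from the classes, which were set in the libraries compared, and is a description. The 5 unclassed genes called, all higher, were Nat8f2, Cyp2c23, Depp1, Rida and Epb41l5. Classes were also taken from control-diet liver and macrophages, with WT control 4 among them. These macrophage libraries are not part of the KI and WT groups compared, but they enter the scaling and the estimate of the spread. By these classes 331 liver-borne genes and 66 macrophage-own genes were called, and of these 66 genes 3 were higher and 63 lower.

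These counts rest on the whole set of libraries. Without WT NASH 1 or without WT NASH 5 the quasi-likelihood test called 0 genes, although 1591 and 2274 had an unadjusted p under 0.05. Without KI NASH 4 it called 89 (3 macrophage-own, 78 liver-borne), without WT NASH 2 147 and without WT NASH 3 262. Without WT NASH 4 it called 975 and without KI NASH 5 800, of which 552 and 388 were macrophage-own. Fitted on the 10 NASH-diet libraries alone, edgeR called 0 genes (1557 with an unadjusted p under 0.05) and DESeq2 452, and on all 18 libraries DESeq2 called 794 (532 higher, 262 lower).

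**Figure D1:**
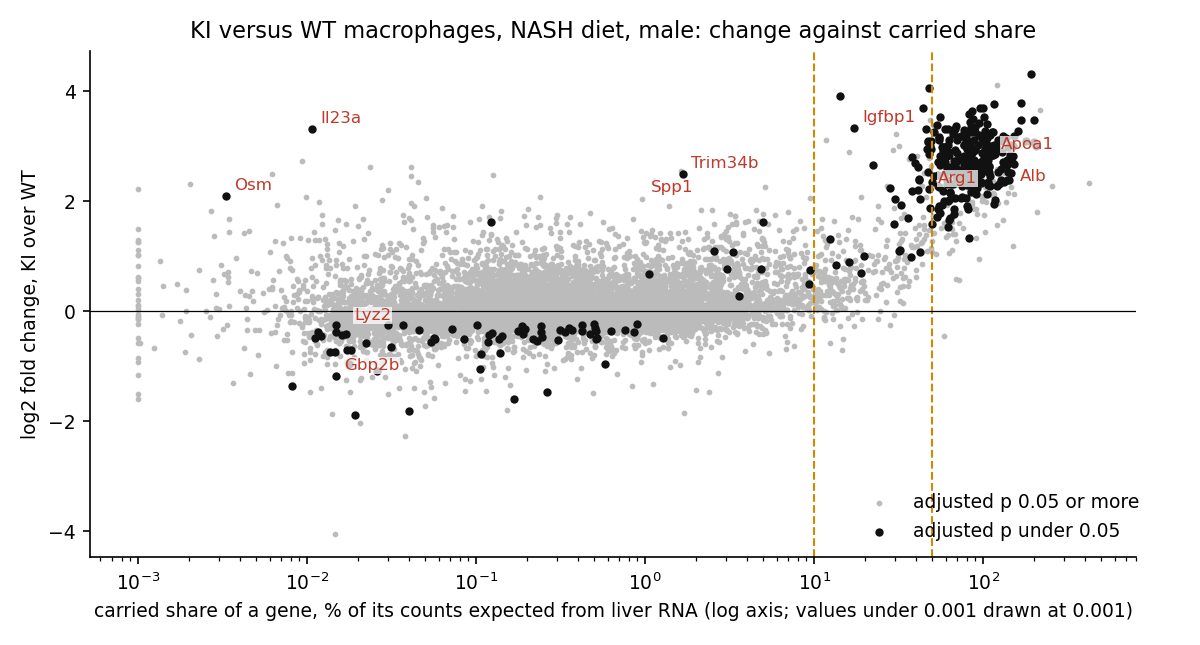
Log2 fold change of KI over WT macrophages (NASH diet, male; n = 5 each) against the carried share of each gene in percent on a log axis, 1 point per gene; black points have an adjusted p under 0.05 in edgeR's quasi-likelihood test and dashed lines mark 10 and 50%. The 284 liver-borne genes called lie together on the right above 0, and the 66 lower genes lie at the left below 0.

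Of the 24 genes of the hepatocyte list 23 were liver-borne, and the class also held genes of other lists, such as Fn1 (recruited monocyte and matrix) and Alas2 (erythroid). Of the hepatocyte list, which was also used to measure the liver share and so is a description, 22 of 24 genes were higher. The median log2 fold change of the list was 2.77, beside 0.01 over all genes tested, and its summed level was 1971 to 5998 TMM CPM in KI and 937 to 1839 in WT. On the control diet the sum in unscaled CPM was 1870 to 2190 in KI and 1715 to 2158 in WT, at liver shares of 0.151 to 0.201% and 0.128 to 0.336%. The sum therefore did not follow the liver share alone. Apoa1, the main apolipoprotein of high-density lipoprotein, had 71.8, 51.0, 147, 283 and 63.9 TMM CPM in KI and 12.8, 5.68, 25.8, 34.1 and 8.05 in WT. The lowest KI library was above the highest of WT (2.83, SE 0.54, adjusted p = 0.0178). Albumin, the gene Alb, had 437, 299.6, 538, 1603 and 214 TMM CPM in KI and 189, 48.0, 155, 218 and 36.6 in WT. KI NASH 5 fell just under WT NASH 4, and the difference of 2.26 missed the threshold (adjusted p = 0.053), which it passed without WT control 4, WT NASH 4, KI NASH 2 or KI NASH 5 (adjusted p from 0.0272 to 0.0478). The other hepatocyte gene not called was Trf, which encodes transferrin.

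The 4 liver-borne genes with the smallest p were not on that list. Fah, the last enzyme of tyrosine breakdown, had 4.72, 4.94, 8.35, 21.1 and 4.48 TMM CPM in KI and 1.70, 1.01, 1.74, 2.01 and 1.10 in WT (2.52, adjusted p = 0.0178). Itih3, a secreted protein that binds hyaluronan, had 12.1, 5.80, 14.1, 30.9 and 7.39 in KI and 1.15, 0.947, 1.74, 4.06 and 1.34 in WT (2.92, adjusted p = 0.0178). Ldhd, a mitochondrial D-lactate dehydrogenase, averaged 3.80 ± 3.08 in KI and 0.648 ± 0.187 in WT, and Ptprd, a receptor-type phosphatase, 2.08 ± 1.52 in KI and 0.186 ± 0.137 in WT (SD, n = 5 each). In all 4 the groups did not overlap, and KI NASH 4 was the highest library in each, with 9.28 for Ldhd and 4.78 for Ptprd. All 4 calls were lost without WT NASH 1 or WT NASH 5, where their adjusted p reached 0.0625, and none was lost without KI NASH 4.

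The expected and observed sizes of the rise are given as a description, because the liver shares and the class both come from these 10 libraries and so fix their medians to be near each other. From the liver shares and the liver levels alone, the median expected log2 ratio of KI over WT for the 395 liver-borne genes was 2.74, and the observed median was 2.57. The observed ratio of 82.5% of them lay within 1 log2 unit of its own expected ratio. The observed ratios were themselves close together, with quartiles of 2.26 and 2.93, so this percentage does not show agreement gene by gene. Across these genes, which share the 10 libraries, the observed and expected ratios had a Spearman correlation of 0.182. In 394 of 395 the KI mean was higher, and in 241 the KI libraries all exceeded those of WT, beside 2.54% of all genes tested. The summed counts of these genes were 0.304, 0.217, 0.435, 1.25 and 0.266% of all counts in the KI libraries and 0.0912, 0.0348, 0.102, 0.156 and 0.0477% in the WT libraries. Whether these counts came from RNA of hepatocytes was not tested.

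**Figure D2:**
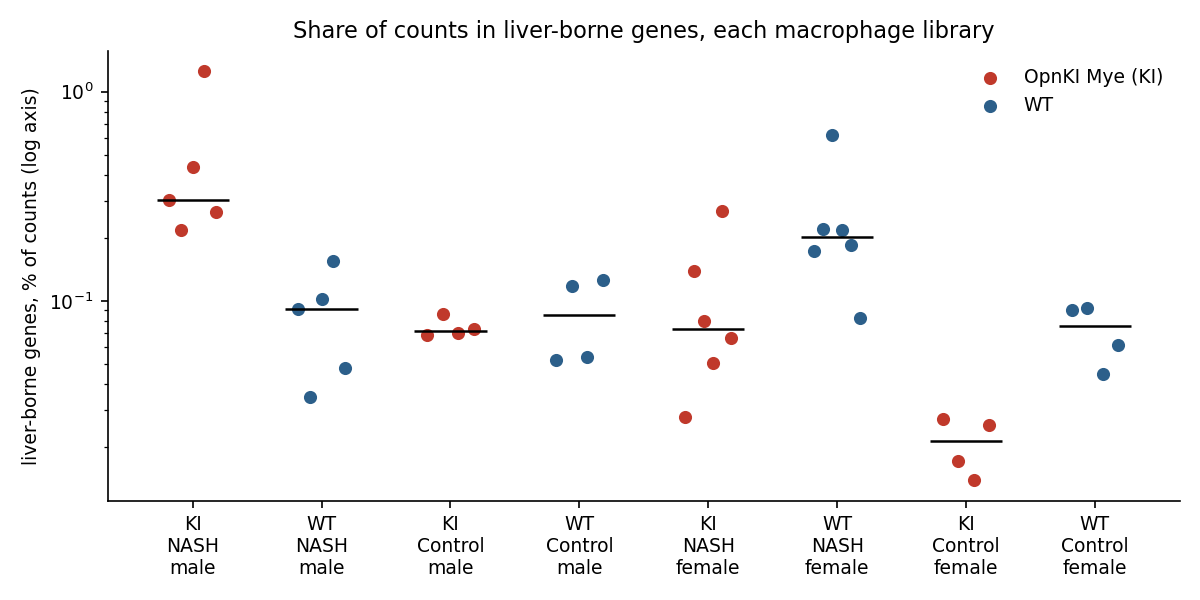
Summed counts of the liver-borne genes as a percent of all counts on a log axis, 1 point per macrophage library, with the median of each group as a line. KI NASH males lie at 0.217 to 1.25% and WT NASH males at 0.0348 to 0.156%, while in NASH-diet females the KI libraries (0.0279 to 0.270%) lie mostly below the WT libraries (0.0827 to 0.618%).

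Promoter letters were counted as a description. The classes did not use them, but liver-borne genes were chosen for their level in liver. More sites of a hepatocyte factor among them can follow from that choice and do not show where the counts came from. The 250 bases before the start of each gene were searched on both strands for GTTAAT, a partial site of the hepatocyte factor HNF1, and for GAGGAAGT, a core of the sites of the macrophage factor PU.1. RefSeq promoters (GRCm38.p6) were matched to 308 liver-borne and 9345 macrophage-own genes. GTTAAT was present in 16.9% of the liver-borne and 3.62% of the macrophage-own promoters, beside 4.08% over the 10237 tested genes with a promoter and 6.52% of all 27025 promoters. GAGGAAGT was present in 2.27% of the liver-borne and 2.69% of the macrophage-own promoters, beside 2.66% of those tested and 2.44% of all. TATAAA, the TATA box, was present in 18.2% of the liver-borne and 6.26% of the macrophage-own promoters, beside 6.73% of those tested and 13% of all. The upstream sequence of albumin is shown because its RNA is the most abundant liver message here, and that of Spp1 because it is the knocked-in gene. The albumin sequence covers chr5:90460620-90460869 and that of Spp1 chr5:104434861-104435110, both on the plus strand, and capitals mark GTTAAT and GAGGAAGT.
Alb: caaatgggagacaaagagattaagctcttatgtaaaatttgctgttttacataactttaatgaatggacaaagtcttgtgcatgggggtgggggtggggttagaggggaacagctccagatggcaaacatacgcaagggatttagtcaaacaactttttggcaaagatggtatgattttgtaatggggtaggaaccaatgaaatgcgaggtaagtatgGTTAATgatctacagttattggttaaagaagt
Spp1: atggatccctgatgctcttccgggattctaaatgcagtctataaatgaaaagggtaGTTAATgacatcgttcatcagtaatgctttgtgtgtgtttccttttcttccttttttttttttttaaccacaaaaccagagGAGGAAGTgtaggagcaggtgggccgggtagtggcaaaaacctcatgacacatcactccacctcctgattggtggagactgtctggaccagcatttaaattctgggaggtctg
The albumin sequence holds 1 GTTAAT and 0 GAGGAAGT, and the Spp1 sequence holds 1 of each. A match of letters does not show that the factor binds there.

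Among macrophage-own genes, oncostatin M was higher in KI macrophages, with almost no part of its counts matched by liver RNA. Osm (chr11:4236785-4241026 of GRCm38) had 43.1, 55.1, 27.0, 35.5 and 48.3 TMM CPM in KI and 4.49, 20.7, 2.19, 17.5 and 4.19 in WT. The lowest KI library lay above the highest WT library, and WT NASH 2 and 4, the WT libraries with Spp1 in the range of KI, were also the highest WT libraries here. Its carried share was 0.0033%. The difference was 2.09 on the log2 scale (SE 0.53, adjusted p = 0.0403 with edgeR's quasi-likelihood test, and 0.00406 with DESeq2). The call was close to the threshold: it was lost without any 1 of 11 libraries, with adjusted p from 0.0509 to 0.109. These were WT NASH 1, 3 and 5, KI NASH 1, 2, 3 and 4, WT control 3 and KI control 1, 3 and 4, and the log2 difference stayed between 1.84 and 2.54 over all 18 omissions. On the control diet Osm stood at 1.47 to 4.13 TMM CPM in KI and 0.214 to 1.47 in WT, a log2 difference of 2.26 that did not pass (adjusted p = 0.64).

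Il23a, which encodes the p19 subunit of interleukin 23, was also higher, at low counts. This gene (chr10:128296140-128298084) had 13.95, 1.95, 3.10, 25.4 and 2.17 TMM CPM in KI and 0.200, 0.651, 1.34, 1.01 and 1.46 in WT. KI NASH 1 and 4 were far above the other 3 KI libraries, whose lowest value lay just above the highest of WT (3.30, SE 0.70, adjusted p = 0.0209). The call was lost without WT NASH 1, 2 or 5 or KI NASH 4 (adjusted p up to 0.0712), and without KI NASH 4 the log2 difference was 2.47. With the liver share as a covariate the log2 difference was 1.75 and did not pass. That fit cannot tell the share from the genotype, because every KI share on the NASH diet exceeded every WT share. On the control diet the order was the other way, at 0.178 to 0.504 TMM CPM in KI and 0.784 to 2.41 in WT (log2 difference -1.74, adjusted p = 0.77). Il12b, whose product pairs with p19, averaged 38.2 ± 38.7 TMM CPM in KI and 9.97 ± 5.25 in WT, and did not pass (1.93, adjusted p = 0.0902).

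The other 4 macrophage-own genes that were higher without overlap of the groups, at 5 TMM CPM or more, changed less. Peli2, a ubiquitin ligase of Toll-like receptor signalling, had 8.56, 7.51, 9.45, 10.8 and 5.83 TMM CPM in KI and 2.35, 4.20, 3.36, 5.43 and 4.51 in WT (1.08, adjusted p = 0.0425). Lpin1, a phosphatidate phosphatase and transcriptional cofactor of lipid metabolism, averaged 42.3 ± 8.86 in KI and 24.97 ± 5.55 in WT (0.76, adjusted p = 0.0386). Cnnm2, a magnesium transport protein, averaged 8.79 ± 1.17 in KI and 5.51 ± 0.646 in WT (0.67, adjusted p = 0.0198), and Tmem19, a membrane protein, 33.1 ± 2.17 in KI and 27.5 ± 2.12 in WT (0.27, adjusted p = 0.0475; SD, n = 5 each). Lpin1 had a carried share of 4.88% and Tmem19 of 3.61%. By the classes from control-diet levels, Peli2, Lpin1 and Tmem19 were liver-borne and Cnnm2 was mixed, and of the 6 named higher genes Osm and Il23a stayed macrophage-own. The remaining 7 higher genes were under 5 TMM CPM or overlapped between groups, among them Trim34b, Cyp26a1, Plec, Ptch1, Sbk1 and Galm, of which Galm and Sbk1 had carried shares of 9.34 and 9.42%.

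**Figure D3:**
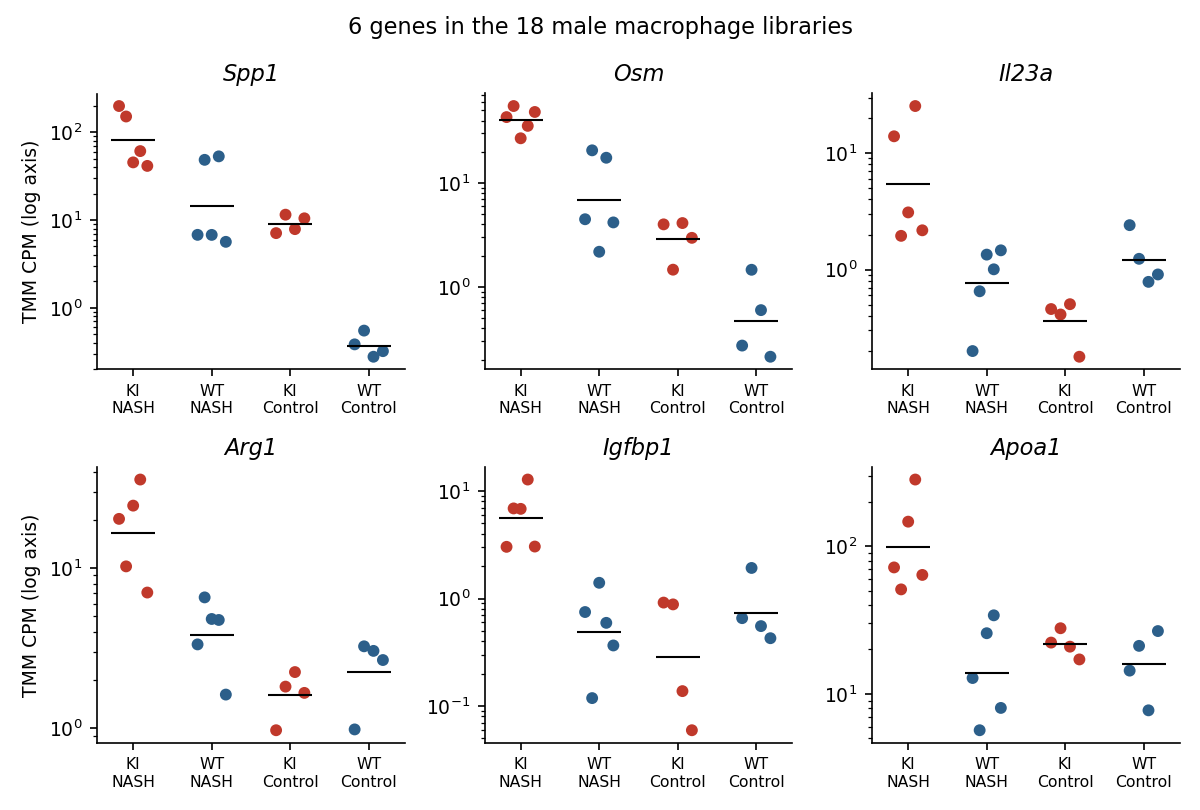
TMM CPM on log axes of Spp1, Osm, Il23a, Arg1, Igfbp1 and Apoa1 in the 18 male macrophage libraries, 1 point per library, with KI left of WT on each diet and the geometric mean as a line. On the NASH diet KI and WT do not overlap for Osm, Il23a, Arg1, Igfbp1 and Apoa1, and overlap for Spp1.

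The genes that act with oncostatin M did not pass. Of 14 genes of the oncostatin M and STAT3 list, Osm was the only one called, and 11 had a positive log2 fold change (median 0.37). Osmr, a receptor subunit for oncostatin M, had 19.6, 11.5, 59.2, 79.3 and 25.04 TMM CPM in KI and 4.24, 8.76, 8.51, 35.4 and 24.5 in WT (1.25, adjusted p = 0.27). Its highest KI libraries were numbers 3 and 4, whereas Spp1 was highest in numbers 1 and 2. Socs3, the feedback inhibitor of STAT3 signalling, averaged 353 ± 145 in KI and 235 ± 115 in WT (0.59, adjusted p = 0.33), and Stat3 itself 202 ± 30.8 in KI and 211 ± 51.6 in WT (-0.06, adjusted p = 0.86). Lif, another cytokine of the family, averaged 9.05 ± 5.34 in KI and 2.84 ± 1.78 in WT (1.67, adjusted p = 0.11). None of the 9 osteopontin receptor genes tested passed. Cd44 averaged 864 ± 196 in KI and 900.2 ± 111 in WT (-0.06, adjusted p = 0.85), and the integrin subunit gene Itga5 189.6 ± 116 in KI and 88.9 ± 35.4 in WT (1.09, adjusted p = 0.12).

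Arg1 was a mixed gene. Arginase 1 is both the last enzyme of the urea cycle in hepatocytes and a marker of alternatively activated macrophages, and its gene (chr10:24915207-24927470) had 20.3, 10.3, 24.6, 35.8 and 7.04 TMM CPM in KI and 3.34, 6.57, 4.82, 4.75 and 1.63 in WT. The groups did not overlap (2.22, SE 0.44, adjusted p = 0.0178). The call was lost without WT NASH 1, WT NASH 5 or KI NASH 4, with adjusted p up to 0.0625. Its carried share was 48.1%. The cytochrome P450 genes Cyp2c37 (47.6%), Cyp3a11 (47.9%) and Cyp8b1 (48.3%) had shares of the same size. The share does not identify the cell the Arg1 counts came from. The counts left after taking away those expected from liver were 15.1, 6.88, 17.0, 9.09 and 2.57 CPM in KI and 1.99, 6.12, 2.22, 1.91 and 0.748 in WT. KI NASH 4, the highest library before, then lay below KI NASH 1 and 3, and KI NASH 5 fell inside the WT range. Counts were also left for Cyp3a11, at 4.47 to 36.7 CPM in KI and -6.75 to 0.924 in WT. With the log2 liver share of each library as a covariate the Arg1 difference was 1.32 and did not pass, and in that fit edgeR called 0 of all genes, with 396 at an unadjusted p under 0.05. Since every NASH-diet KI share exceeded every WT share, the share and the genotype cannot be told apart in that fit. It does not show how much of the Arg1 difference goes with liver RNA.

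Arg1 was the only gene called of the 10 tested on the arginine list. Arg2, the mitochondrial arginase, had a carried share of 0.0038% and 263, 97.9, 201, 218 and 80.1 TMM CPM in KI, against 99.7, 61.5, 64.4, 116 and 98.8 in WT. KI NASH 2 and 5 lay inside the WT range (0.96, adjusted p = 0.12, and 0.0352 without KI NASH 5). Ass1, of the urea cycle, was at 0 in all 10 libraries. Cpt1a, the gate of mitochondrial fatty acid oxidation, averaged 239.5 ± 42.5 TMM CPM in KI and 253 ± 37.3 in WT (-0.08, adjusted p = 0.79), and none of the 19 genes of that list passed in either direction (median 0.08).

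Igfbp1, a secreted binding protein of insulin-like growth factors made by hepatocytes, was a mixed gene. Its gene (chr11:7197787-7202546) had 3.03, 6.89, 6.82, 12.8 and 3.04 TMM CPM in KI and 0.748, 0.118, 1.40, 0.594 and 0.366 in WT, without overlap (3.33, adjusted p = 0.0181). Of its counts 17.2% were matched by liver RNA, and 2.45 to 9.80 CPM in KI and 0.0743 to 1.16 in WT were left after taking those away. This share does not identify the cell the Igfbp1 counts came from. Igfbp1 was picked after its values were seen, for being called in both sexes. Other mixed genes called, also picked afterwards, were Cyp2c37, a cytochrome P450, at 4.13 TMM CPM in KI and 0.239 in WT (4.06), Krt18, an epithelial keratin, at 9.04 in KI and 1.05 in WT (3.09), and G6pc, the last enzyme of glucose release, at 8.38 in KI and 1.09 in WT (2.94). Each of these 3 had a carried share of 46 to 49%, just under the limit of the liver-borne class.

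The 66 macrophage-own genes lower in KI changed by small amounts. Their median log2 fold change was -0.45, and 8 of them fell by more than 1. In 40 of the 66 every KI library lay below every WT library, beside 0.982% of all genes tested. The 66 were called from these same libraries, so this separation follows in part from the calls and is a description. The named 10 follow, as those with the largest falls at 5 TMM CPM or more without overlap. Gbp2b, an interferon-inducible guanylate-binding protein, had 71.2, 118, 102, 99.3 and 107.5 TMM CPM in KI and 269, 213, 273, 167 and 206.5 in WT (-1.18, SE 0.27, adjusted p = 0.0269). Cd300e, an activating receptor of monocytes and macrophages, had 78.1, 40.4, 93.9, 57.1 and 79.1 in KI and 173, 96.8, 138, 140.1 and 129 in WT (-0.96, SE 0.20, adjusted p = 0.0183). The lowest WT library of Cd300e, number 2, was only slightly above the highest KI library.

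Rac2, the small GTPase of blood cells that drives the phagocyte oxidase and the actin skeleton, had 327, 339, 305, 304 and 249.6 TMM CPM in KI and 532, 454.5, 423.5, 523 and 353 in WT (-0.58, adjusted p = 0.021). Cox5a, a subunit of cytochrome c oxidase, had 180.0, 159.8, 166, 165 and 169 in KI and 324, 221, 270.5, 191 and 194 in WT (-0.52, adjusted p = 0.0345). The 5 KI libraries lay close together for Cox5a and the WT libraries were spread. Stag3, a cohesin subunit, averaged 3.82 ± 0.895 in KI and 8.15 ± 2.52 in WT (-1.09), and Pigz, of glycosylphosphatidylinositol anchor synthesis, 8.17 ± 1.54 in KI and 13.3 ± 1.21 in WT (-0.70). The adaptor gene Cd2ap fell by 0.54, the tRNA methyltransferase gene Trmt61a by 0.51, the antiviral deaminase gene Apobec3 by 0.51 and Ccdc12 by 0.50 on the log2 scale, each with adjusted p from 0.021 to 0.039.

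Further lower genes had known roles in macrophages and were read after the calls were seen. Aif1, which encodes the actin-bundling protein IBA1, averaged 192 ± 27.0 TMM CPM in KI and 263 ± 12.9 in WT (-0.45, adjusted p = 0.0279). The actin regulators Vasp (-0.33), Twf1 (-0.35) and Cttn (-0.35) and the exchange factor Vav1 (-0.25) were lower, as were the redox genes Txn1 (-0.48) and Blvrb (-0.37). Adgre4, a relative of the F4/80 gene, fell by 0.70.

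The 16 named macrophage-own genes were chosen for groups without overlap, so leaving out 1 library could hardly turn their direction. All 16 kept it in each of the 18 such fits, which is therefore no test of stability. Their calls depended on single libraries. Without WT NASH 1, WT NASH 5 or KI NASH 4 all 16 were lost (adjusted p up to 0.139), without WT NASH 2 11 (up to 0.0765), without KI NASH 3 9 (up to 0.114), without KI NASH 1 8 (up to 0.126) and without WT NASH 3 7 (up to 0.102). Without KI NASH 2, WT NASH 4 or any 1 control-diet library 1 to 5 were lost (up to 0.0977), and without KI NASH 5 none.

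**Figure D4:**
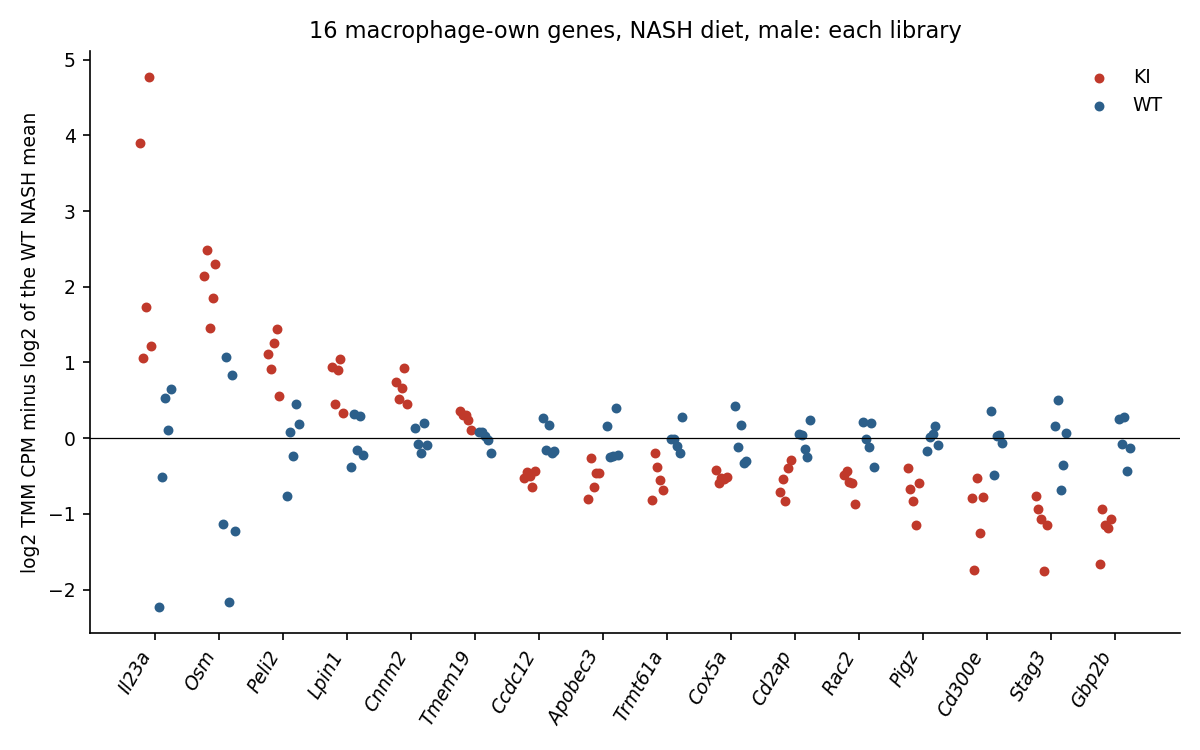
The 16 named macrophage-own genes, 6 higher and 10 lower in KI: log2 TMM CPM of each library minus the log2 of the WT NASH mean, with the 5 KI libraries (left of each pair) and the 5 WT libraries. No gene overlaps between groups. The largest log2 difference is that of Il23a (3.30), whose libraries are also the most spread, and the smallest is that of Tmem19 (0.27).

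Kupffer cell genes stood slightly lower in KI as a list. All 16 had a negative log2 fold change (median -0.38, beside 0.01 and 51.3% positive over all genes tested), and 2 passed. Nr1h3, the liver X receptor alpha that maintains Kupffer cell identity, had 409, 409.6, 426, 342 and 389 TMM CPM in KI and 543, 450.4, 525, 508 and 452 in WT (-0.33, adjusted p = 0.0257). Adgre1 had 1621, 1503, 1600, 1408 and 1727 in KI and 1915, 1861, 2047, 2461 and 1859 in WT (-0.37, adjusted p = 0.0493). F4/80 is also the antigen by which the cells were sorted. Timd4, a receptor for dying cells found on long-lived Kupffer cells, ranged from 29.3 to 416.5 in KI and from 215 to 764 in WT, with overlap (-1.25, adjusted p = 0.18, and 0.0362 without KI NASH 5). Clec4f averaged 5597 ± 2864 in KI and 7580 ± 3079 in WT (-0.44, adjusted p = 0.47). In a bulk library fewer cells of a type and less RNA per cell cannot be told apart.

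Lipid-associated macrophage genes pointed the other way without passing. Of 17 genes 16 had a positive log2 fold change (median 0.84) and none was called. Trem2, a lipid receptor, had 349, 331, 160.4, 235 and 162 TMM CPM in KI and 64.2, 239, 99.3, 211 and 79.5 in WT (0.84, adjusted p = 0.24). Gpnmb, a lysosomal glycoprotein, had 1299, 1058, 631, 877 and 52.4 in KI and 63.5, 603, 21.2, 856 and 13.4 in WT (1.33, adjusted p = 0.51). Both genes were high in WT NASH 2 and 4, and Gpnmb was low in KI NASH 5, so that the level split the libraries of each genotype. Lyz2, the lysozyme gene that carries Cre by the label of the WT mice, averaged 2231 ± 893 in KI and 2693 ± 872 in WT (-0.27, adjusted p = 0.86).

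Markers of other cells that a liver sort could hold were read beside these results, with the hepatocyte genes given above. Of 14 recruited monocyte genes the fibronectin gene Fn1 was called (1.85, adjusted p = 0.0341). It was liver-borne with a carried share of 67.5%, and the summed level of the list was 580 to 1106 TMM CPM in KI and 602 to 1115 in WT. No gene was called of 14 sinusoidal endothelial genes (summed 1943 to 6297 in KI, 2443 to 6072 in WT), 14 stellate cell genes (252 to 564 in KI, 174 to 398 in WT), 12 T and NK cell genes (8.17 to 60.2 in KI, 2.63 to 59.0 in WT), 7 B and plasma cell genes (11.7 to 48.5 in KI, 4.09 to 24.7 in WT), 9 dendritic cell genes (68.5 to 142.9 in KI, 80.4 to 100.8 in WT) or 5 neutrophil genes (128 to 187.9 in KI, 127 to 188 in WT). Most fold changes in these lists were positive: 14 of 14 stellate genes (median 0.84), 12 of 12 T and NK cell genes (0.25), 7 of 7 B and plasma cell genes (0.67), 12 of 14 endothelial genes (0.37), 6 of 9 dendritic cell genes (0.59) and 3 of 5 neutrophil genes (0.49). The 9 cholangiocyte genes were too low to be tested, and the 4 globin genes were at 0 in all 10 libraries. Alas2, the haem synthesis enzyme of erythroid cells, was the erythroid gene tested, at 0.38 to 5.49 TMM CPM in KI and 0.178 to 2.02 in WT (1.39, adjusted p = 0.28). The part of these cells in the genes above was not tested.

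Most lists of macrophage functions held no called gene. The lists with 0 called were cholesterol synthesis and uptake (24 genes, 22 positive, median 0.20), LXR target and sterol efflux (13, median -0.03), chemokine and receptor (17, median 0.53), interferon response (18, median -0.09), MHC class II (10, median 0.26), complement and efferocytosis (16, median -0.02), lysosome (22, median -0.08), NRF2 and glutathione (14, median -0.04), unfolded protein response (16, median 0.16), immediate early and heat shock (19, median -0.02) and glycolysis and hypoxia (15, median 0.11). Of 22 cell cycle genes 1 had a positive log2 fold change (median -0.20), and of 28 oxidative phosphorylation genes none had (median -0.15), with Cox5a the only one called. Cxcl13, a chemokine for B cells, averaged 11.1 ± 7.78 TMM CPM in KI and 36.5 ± 14.6 in WT and did not pass (-1.72, adjusted p = 0.0765). Slc7a11, the cystine transporter gene, averaged 10.8 ± 8.64 in KI and 2.00 ± 2.19 in WT (2.45, adjusted p = 0.1).

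Where other lists held called genes, these were mostly liver-borne or mixed. Of 12 lipid droplet genes tested, Plin5, Cideb, Dgat2 and G0s2 were higher, with carried shares of 27.98 to 63.1%. Of 13 fatty acid synthesis genes Mlxipl, the carbohydrate-sensing factor of hepatocytes, was higher (carried share 96.7%). Of 27 extracellular matrix genes Fn1 was the one called, and 23 were positive (median 0.82). Of these, Thbs1, the matricellular thrombospondin, averaged 148 ± 120 TMM CPM in KI and 32.3 ± 31.0 in WT without passing (2.20, adjusted p = 0.12). Of 12 iron handling genes the haem-binding Hpx was higher with a carried share of 108%, and Blvrb, the biliverdin reductase B of haem breakdown, was lower (179 ± 17.6 in KI, 232 ± 38.6 in WT; -0.37, adjusted p = 0.0493). Of 11 alternative activation genes tested only Arg1 was called.

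On the control diet no gene differed between KI and WT macrophages of males by edgeR's quasi-likelihood test (862 with an unadjusted p under 0.05, and DESeq2 called 5). The 4 WT libraries of this contrast include WT control 4, the library high in Xist and low in Ddx3y. Leaving out any 1 of the 18 libraries gave 0 to 1 gene here, and 0 to 1 for the test of its change with the diet. The changes between diets given below were not refitted without WT control 4. On the control diet the liver-borne genes had a median log2 fold change of -0.41, against 2.57 on the NASH diet. Between the diets, 3127 genes changed in KI (24.0%; 15.1% higher and 8.94% lower on the NASH diet) and 1068 in WT (8.19%; 5.36% higher and 2.83% lower). Of the 395 liver-borne genes, 376 were higher on the NASH diet than on the control diet in KI and 0 in WT, where 14 had an unadjusted p under 0.05 by the same edgeR test. This pattern uses the libraries that set the class and is a description. Of the 13 macrophage-own genes higher on the NASH diet 6 had the same sign on the control diet, and of the 66 lower genes 35 had, beside 53.0% of all macrophage-own genes with a negative sign there. The test of whether the genotype difference itself changed with the diet called 0 genes by edgeR (1595 with an unadjusted p under 0.05, 347 of them liver-borne), while DESeq2 called 250. For Osm the difference hardly changed between diets (-0.16, adjusted p = 0.96), and for Il23a the interaction of 5.04 did not pass (adjusted p = 0.17).

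In females on the NASH diet the same genotype comparison called 59 of 13373 genes (0.441%), 24 higher (0.179%) and 35 lower (0.262%) in KI. Lyz2, which carries Cre by the label of the WT mice, split the female KI group, while female WT stood at 2095 to 2849 TMM CPM. It was 41.9 and 44.1 TMM CPM in female KI NASH 3 and 4, against 2032 to 2510 in the other 4 female KI libraries. Without both libraries edgeR called 0 genes in females (1306 with an unadjusted p under 0.05), and 418 for the difference between the sexes, so that none of the female calls below was made without them. The liver-borne share of counts ran the other way in females. These genes made up 0.0279 to 0.270% of counts in female KI and 0.0827 to 0.618% in female WT. Of the 395 liver-borne genes of males 376 had a negative log2 fold change in females (median -1.30), and none was called there. Without KI NASH 3 and 4 it was 377 (median -0.998). The difference of the genotype effect between the sexes (female minus male) passed for 584 of 13373 genes (4.37%), 55 positive (0.411%) and 529 negative (3.96%), and for 328 of the 395 liver-borne genes. For Apoa1 it was -4.28 (adjusted p = 0.0013, and 0.00993 without those 2 libraries) and for Arg1 -3.28 (adjusted p = 0.0017, and 0.0102 without). Of the 12 omissions of a female library, 8 moved the female count by over 1.5 times. It was 394 without KI NASH 2, 8 without KI NASH 3, 12 without KI NASH 4, 9 without KI NASH 5, 10 without WT NASH 1, 24 without WT NASH 4, 7 without WT NASH 5 and 32 without WT NASH 6.

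Of the genes called, 4 passed in both sexes, which is 0.98% of the 408 in males and 6.78% of the 59 in females, and 2 of these had the same sign. Osm was higher in female KI macrophages as in male ones, with 12.7, 12.6, 51.9, 8.97, 23.1 and 32.1 TMM CPM in female KI and 3.79, 6.46, 6.62, 6.22, 9.89 and 3.95 in female WT. The lowest female KI library lay inside the WT range, and the difference was 1.94 (adjusted p = 0.0413), against 2.09 in males. Without female KI NASH 3 and 4 it was 1.71 (adjusted p = 0.198). The test of the sex difference for Osm gave -0.14 (adjusted p = 0.96). Trim34b, a tripartite motif gene with close paralogs whose reads may be split, was low in both sexes, with 1.37 ± 1.56 TMM CPM in male KI and 0.245 ± 0.104 in male WT, and 4.304 ± 4.322 in female KI and 0.531 ± 0.155 in female WT. The male groups of Trim34b overlapped, and KI NASH 1 and 5 were the highest (2.49, adjusted p = 0.0425).

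The other 2 had opposite signs. Il23a stood at 0 to 0.928 TMM CPM in female KI and 0.265 to 4.21 in female WT (-3.43, adjusted p = 0.0437), so that the sexes differed by -6.71 (female minus male, adjusted p = 0.0013). Igfbp1 stood at 0 to 1.81 TMM CPM in female KI and 0.570 to 14.2 in female WT (-3.25, adjusted p = 0.0431), and the sexes differed by -6.56 (adjusted p = 0.0013). Without female KI NASH 3 and 4 the female differences did not pass (Il23a -2.96, adjusted p = 0.285, and Igfbp1 -2.68, adjusted p = 0.282), and the sex differences did (adjusted p = 0.00993 for both). Of the 13 macrophage-own genes higher in male KI, 7 had a positive sign in females, beside 53.4% of all macrophage-own genes. Of the 66 lower in male KI, 52 had a negative sign in females, beside 46.5% of all macrophage-own genes, and none was called there (3 had an unadjusted p under 0.05). For Pigz the log2 difference was 0.03 in females, and the difference between the sexes passed (0.75, adjusted p = 0.0371, and 0.153 without those 2 libraries), as it did for Trmt61a (0.73, adjusted p = 0.0118).

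Inflammatory cytokine and NF-kB genes differed by sex as well. In males 16 of the 17 genes had a positive log2 fold change and none was called (median 0.54), while in females 7 were lower in KI (median -1.24). The sex difference passed for 11 of the 17, all more negative in females. Without female KI NASH 3 and 4 it passed for 7, and none of the 17 was called in females. Tnf, the tumour necrosis factor gene, averaged 617 ± 175 TMM CPM in male KI and 349 ± 265 in male WT (0.82, adjusted p = 0.36), and 69.0 ± 34.4 in female KI and 281 ± 180 in female WT (-2.03, adjusted p = 0.0214). Il1a, of interleukin 1 alpha, averaged 1134 ± 511 in male KI and 634 ± 233 in male WT (0.84, adjusted p = 0.13), and 395 ± 153 in female KI and 957 ± 360.2 in female WT (-1.28, adjusted p = 0.0219). The sex differences were -2.82 for Tnf (adjusted p = 0.0032, and 0.0201 without those 2 libraries) and -2.10 for Il1a (adjusted p = 0.0015, and 0.0101 without). The carried share of Il1a was 0.0031%, so that almost none of its counts was matched by liver RNA. The liver-borne share of counts ran in the same direction as these genes in both sexes, and its part in them was not tested.

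**Figure D5:**
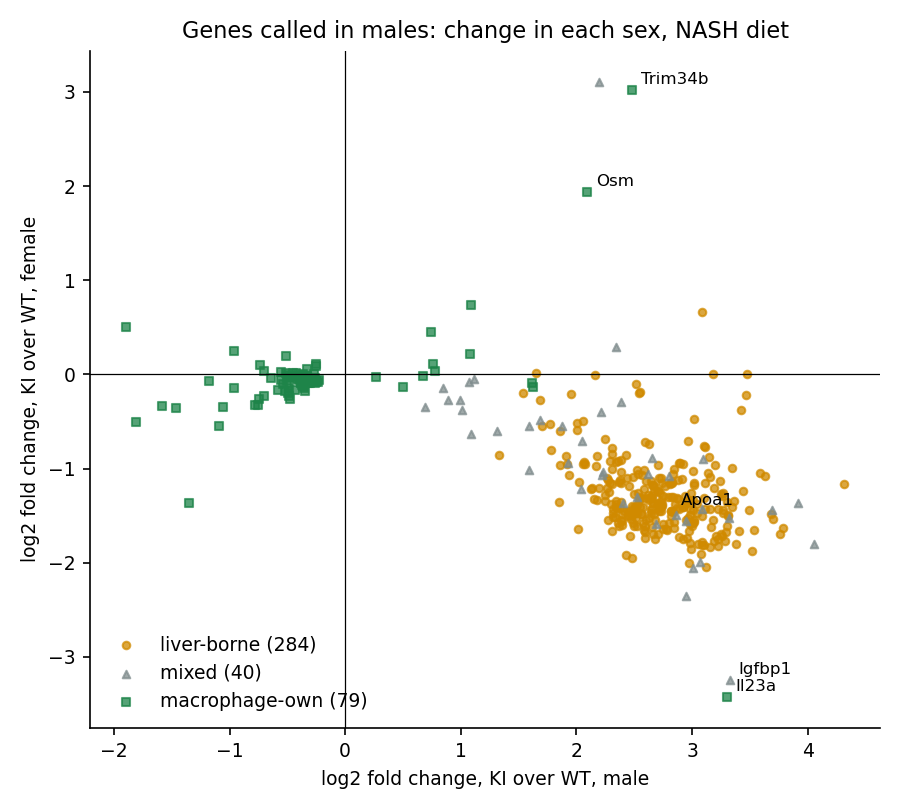
Log2 fold change of KI over WT on the NASH diet in males (x axis) and females (y axis) for the genes called in males, 1 point per gene, by class. The liver-borne genes lie to the right and mostly below 0, Osm (2.09 and 1.94) and Trim34b lie at the upper right, and most of the 66 lower macrophage-own genes lie close to 0 on the y axis.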

How the data were processed

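The authors deposited raw counts per gene symbol as whole numbers, 1 table for macrophages of both sexes (24982 symbols) and 1 for male liver (23839; 23732 shared). The genome build was mm10, per the submitters' processing notes; the sources used here give no aligner, annotation or strand setting. Paralogs, overlapping and antisense genes are therefore uncertain. The female liver table was not used. Counts of the 18 male macrophage libraries (4 groups) were fitted with edgeR 4.0.16 in R 4.3.3: TMM scaling, filterByExpr (min.count 10, min.total.count 15), quasi-likelihood test, Benjamini-Hochberg adjustment over all genes tested, threshold 0.05. Every adjusted p is from it unless DESeq2 is named. Female and sex-difference values come from 1 fit of 38 libraries in 8 groups. CPM for liver shares are unscaled, over shared symbols. The fit was tested on simulated data. DESeq2 1.42.0, other scalings, filters, classes and left-out libraries were alternatives. Nothing in the labels says which mice the libraries came from, so p values measure the spread between libraries. The members and the 35 gene lists were chosen with earlier results of these data known. Genes named: 16 fixed ones, macrophage-own genes called without overlap at 5 CPM or more (6 higher, the 10 lowest), up to 4 per list and 4 liver-borne genes by p. No 2 libraries of a group were alike within counting noise. Some genes that were called are not reported here.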

Additional observations from a re-analysis of the deposited data

Results flagged for a closer look

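In 84 groups of named values 10 libraries stood apart from the rest of their group by Dixon's criterion, and chance alone would mark about 1 group in 20. KI NASH 4 was the high library for Alb (1603 TMM CPM), Ldhd (9.28), Fah (21.1), Ptprd (4.78) and Fn1 (120.9) and for the liver-borne share of counts (1.25%). All of these are liver-borne, so they are 1 pattern and not 6. WT NASH 4 was high for Itih3 (4.06 TMM CPM), KI NASH 1 for Lyz2 (3799) and KI NASH 5 for Cpt1a (314), and among females WT NASH 3 for the liver-borne share (0.618%).

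The genotype effect on the NASH diet differed between the sexes for 12 of 40 named genes, as female minus male log2 difference. Genes of the liver-borne and mixed classes, which were set in males, were more negative in females: Arg1 -3.28, Alb -3.74, Apoa1 -4.28, Ldhd -2.72, Fah -3.90, Ptprd -4.67, Itih3 -4.01, Igfbp1 -6.56 and Fn1 -2.43. Of macrophage-own genes Il23a differed by -6.71, and Pigz (0.75, not called without the 2 female KI libraries low in Lyz2) and Trmt61a (0.73) were lower in male KI and had log2 differences of 0.03 and 0.20 in females. Igfbp1 and Fn1 were added to the genes examined after their values were seen.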

How the results depend on the processing

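Counts of 342 higher and 66 lower genes moved with the tool and the libraries used. DESeq2 called 794 genes (349 macrophage-own), 5 on the control diet, 250 for the interaction and 276 in females. The fit of 38 libraries called 817 (373 macrophage-own). The 10 NASH-diet libraries alone gave 0 by edgeR in all, in the macrophage-own and in the liver-borne class (1557, 1049 and 343 with an unadjusted p under 0.05), and DESeq2 called 452 there (128 macrophage-own). The liver share as a covariate gave 0 in each (396, 368 and 15), and since every KI share exceeded every WT share, the share and the genotype cannot be told apart there. Without the 2 control-diet libraries low in Lyz2, WT control 4 and KI control 3, 311 were called (48 macrophage-own), and Osm had adjusted p = 0.0569; without the 2 female KI libraries low in Lyz2, 0 were called in females. These fits and the DESeq2 fit of 10 libraries were chosen after seeing the data. Leaving out 1 library gave 0 to 975 in all, 0 to 552 macrophage-own, 0 to 332 liver-borne, 0 to 1 on the control diet and for the interaction, 7 to 394 in females and 385 to 834 for the sex difference. Median-ratio scaling, scaling without liver genes, no filter and other classes kept these totals within 1.5 times, but not the split: classes from control-diet levels left 3 higher macrophage-own genes, against 13. The replicate numbers gave no clear pairing of the libraries (correlations of -0.000121, 0.563, -0.049, 0.514 and 0.379 between same-numbered KI and WT, with KI 2 and 4 closest to their own number). So few pairs cannot exclude a pairing by number. The replicate block gave 412 higher and 81 lower genes, and 35 in females against 59. Of single genes 783 values kept their call and direction, 177 lost and 15 gained the threshold, and 5 changed sign: Cd44 (0.0741), Osmr (-0.0822), Stat3 (0.065) and Alb (-0.27) under the covariate, and Stat3 (0.074) without WT NASH 5 (range over omissions -0.171 to 0.074). The cause was not tested. Genes near 1 CPM rest on about 20 counts a library.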
